A study of Mus musculus with 6 samples.

Results

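The NF-kB module described here consisted of 10 genes, a named set matched by Ensembl identifier among the 55414 genes of the table. They were the DNA-binding subunits Nfkb1, Nfkb2, Rela and Relb, the cytoplasmic inhibitors Nfkbia and Nfkbie, the nuclear inhibitor-like proteins Nfkbiz and Bcl3, and the feedback genes Tnfaip3 and Birc3. All 10 were found and entered the tests, although Nfkbie met the filter on low counts only through the TNF libraries. RNA was sequenced from purified Paneth cells (PCs), which fill the base of the small intestinal crypts and secrete antimicrobial granules. The mice had received tumour necrosis factor (TNF) or phosphate-buffered saline (PBS, the control) 15 h earlier. By the series text there were 3 mice per group and 1 library per mouse. Every mouse, the PBS controls included, was labelled as an Ifnar1 knockout of strain C57BL/6J, so no mouse with an intact type I interferon receptor was compared. The labels give no dose of TNF, age or sex, and a single time after injection, so earlier values were not seen.

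NF-kB transcription factors are dimers of Rel proteins that wait in the cytoplasm, bound by inhibitors of the IkB family. TNF binding to its receptor activates the IkB kinase complex, which marks the cytoplasmic IkB proteins for degradation and lets the dimers enter the nucleus. The canonical arm works mainly through Rela and the product of Nfkb1, and the non-canonical arm through Relb and the product of Nfkb2, whose precursors carry their own IkB-like repeats. Many inhibitors of the pathway are themselves transcribed by NF-kB, which makes the response self-limiting. In the gut epithelium the pathway is known for controlling antimicrobial and chemokine genes and the survival of cells exposed to TNF.

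Total counts ranged from 12747484 to 17039511 per library. TNF replicate 1 stood apart from its group. Over all tested genes its log2 CPM (counts relative to the scaled library total) correlated at 0.884 and 0.883 with TNF replicates 2 and 3, and at 0.937 to 0.945 with the PBS libraries; it was kept as labelled, and results are given with and without it. Ifnar1 had 5.19, 8.88 and 9.55 CPM after PBS and 5.18, 7.78 and 12.7 CPM after TNF, and a gene-level count without a wild-type library checks nothing about the knockout. PBS replicate 3 and TNF replicate 3 carried 846 and 669 counts of Y-linked genes, where the other 4 libraries had 0 to 2. Xist, which is transcribed from the inactive X chromosome, had 9.40 CPM in PBS replicate 3, 192 CPM in TNF replicate 3 and 355 to 1177 CPM in the others, so TNF replicate 3 held both signals although the series text gives each library a mouse of its own. The part of this in the results was not tested, and without TNF replicate 3 no member passed 5% in edgeR. The defining PC markers Lyz1, Defa24, Defa30, Mmp7, Ang4, Itln1 and Clps summed to 370559 to 457013 CPM after PBS and to 615341, 278519 and 444122 CPM after TNF in replicates 1 to 3. These sums are mostly Lyz1 and Defa24; Mmp7 was above PBS in every TNF library, and Clps had 1231 to 2341 CPM after PBS and 2172, 260 and 467 CPM after TNF (log2 fold change -2.13 without TNF replicate 1, edgeR adjusted p 0.00434). Among the immune cell markers, Cd3g and Nkg7 had 0 counts in every library, and the list summed to 22.3 to 54.7 CPM after PBS and to 45.5, 37.7 and 35.6 CPM after TNF.

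The promoters of the module are shown first, because the values of its members differed in both directions. Each window spans 250 bases before to 50 bases after the start of the canonical GENCODE transcript, read from the reference genome GRCm39 on the gene's own strand. The standard 10-base NF-kB consensus motif was searched on both strands, and its matches are in capitals. A match was found in 4 of the 10 windows, those of Relb, Nfkbia, Nfkbie and Tnfaip3, whereas 4.87% of 21757 promoters of protein-coding genes of the same length held 1. These letters describe the windows and are not evidence of binding. Relb (chr7:19363374-19363673, minus strand) and Tnfaip3 (chr10:18891137-18891436, minus strand) held 2 matches each, and Nfkbia (chr12:55539383-55539682, minus strand) and Nfkbie (chr17:45866356-45866655, plus strand) held 1 each.
Relb: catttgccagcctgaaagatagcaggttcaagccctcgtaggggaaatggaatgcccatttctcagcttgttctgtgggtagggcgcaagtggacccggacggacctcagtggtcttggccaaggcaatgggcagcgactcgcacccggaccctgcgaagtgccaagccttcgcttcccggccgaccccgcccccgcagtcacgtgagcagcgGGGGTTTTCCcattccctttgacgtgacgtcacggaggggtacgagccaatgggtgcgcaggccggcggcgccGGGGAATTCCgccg
Tnfaip3: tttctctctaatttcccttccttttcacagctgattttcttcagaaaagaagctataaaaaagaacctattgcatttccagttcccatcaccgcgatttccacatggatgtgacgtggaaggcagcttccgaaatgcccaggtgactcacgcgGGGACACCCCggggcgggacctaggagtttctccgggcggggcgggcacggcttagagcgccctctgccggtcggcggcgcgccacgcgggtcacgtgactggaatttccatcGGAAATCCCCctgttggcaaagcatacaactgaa
Nfkbia: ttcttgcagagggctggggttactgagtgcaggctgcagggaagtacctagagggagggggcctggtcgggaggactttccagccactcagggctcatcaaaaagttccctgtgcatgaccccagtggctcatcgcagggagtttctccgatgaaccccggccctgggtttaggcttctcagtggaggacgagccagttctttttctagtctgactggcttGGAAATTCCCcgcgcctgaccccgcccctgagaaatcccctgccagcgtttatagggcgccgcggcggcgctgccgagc
Nfkbie: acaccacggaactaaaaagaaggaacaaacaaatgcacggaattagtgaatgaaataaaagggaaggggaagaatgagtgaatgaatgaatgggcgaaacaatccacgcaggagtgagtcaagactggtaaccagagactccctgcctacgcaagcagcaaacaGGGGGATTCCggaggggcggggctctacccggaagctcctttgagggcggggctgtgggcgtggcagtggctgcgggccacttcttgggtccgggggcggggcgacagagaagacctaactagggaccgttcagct

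In Relb the matches were GGGGTTTTCC at position -37 and GGGGAATTCC at position 37, counted from the first transcribed base. In Tnfaip3 they were GGGACACCCC at -97 and, for a match on the other strand, GGAAATCCCC at 17. Letters of a match on the other strand are given as they stand on the gene's own strand. In Nfkbia the match GGAAATTCCC, on the other strand, began at -29, and in Nfkbie GGGGGATTCC began at -86. The windows of the nuclear IkB genes are shown beside them, since both genes had lower values in TNF. Neither Bcl3 (chr7:19556813-19557112, minus strand) nor Nfkbiz (chr16:55642870-55643169, minus strand) held the motif in these 300 bases, which says nothing of other starts: the gene models reach further upstream, to 19557570 for Bcl3 and 55659262 for Nfkbiz. Nfkb1, Nfkb2, Rela and Birc3 also held no match.
Bcl3: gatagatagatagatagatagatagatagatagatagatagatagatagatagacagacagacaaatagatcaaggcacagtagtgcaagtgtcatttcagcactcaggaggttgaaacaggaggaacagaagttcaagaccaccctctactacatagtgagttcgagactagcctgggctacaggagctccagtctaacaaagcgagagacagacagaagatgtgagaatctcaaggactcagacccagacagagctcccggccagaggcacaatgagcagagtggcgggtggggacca
Nfkbiz: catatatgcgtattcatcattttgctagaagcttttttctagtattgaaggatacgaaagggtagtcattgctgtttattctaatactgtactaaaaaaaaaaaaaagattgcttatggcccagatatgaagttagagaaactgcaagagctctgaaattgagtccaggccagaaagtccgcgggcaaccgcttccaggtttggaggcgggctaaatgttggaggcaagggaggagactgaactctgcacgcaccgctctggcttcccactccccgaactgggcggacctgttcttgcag

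The comparison of TNF with PBS asked how the module differed in PCs 15 h after the injection. Over all 6 libraries, 8 members had a higher mean estimate in TNF and 2, Bcl3 and Nfkbiz, a lower one, but 0 of 10 passed a 5% adjusted p in edgeR's quasi-likelihood test, and neither did any other gene (0.00% of 13026). At an unadjusted p under 0.05 there were 8 members, 6 higher and 2 lower, where 12.3% of all genes reached it. The 6 higher include Nfkbie, whose p is not read because it met the low-count filter only through the TNF libraries. The median log2 fold change of the module was 0.89, against -0.00 over all tested genes. Without TNF replicate 1, 6 members rose (Nfkb1, Nfkb2, Relb, Nfkbia, Tnfaip3 and Birc3), where 9.10% of 13660 genes did, and 2 fell (Nfkbiz and Bcl3), where 5.40% did. The median was then 1.21, against -0.01 over all genes. Both medians include Nfkbie. TNF replicate 1 correlated better with the PBS libraries than with its own group. Leaving it out thus favours a difference between the groups, here and in every later result without it. Leaving out any other single library gave 0 members past 5% in edgeR. DESeq2 on all 6 libraries passed Relb (1.43% of all genes were called higher) and Bcl3 (0.284% lower). Limma-voom with sample weights passed 6 members higher and 2 lower (7.06% and 4.47% of all genes). EdgeR with no low-count filter passed 4 higher and 2 lower (2.10% and 0.849%). Those last shares are over 23434 genes, low-count genes included, so they are not like the shares of the filtered fits. Nfkbie is again among the 6 higher with sample weights. In sorted bulk RNA, fewer cells of a kind and less RNA per cell cannot be told apart.

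**Figure D1:**
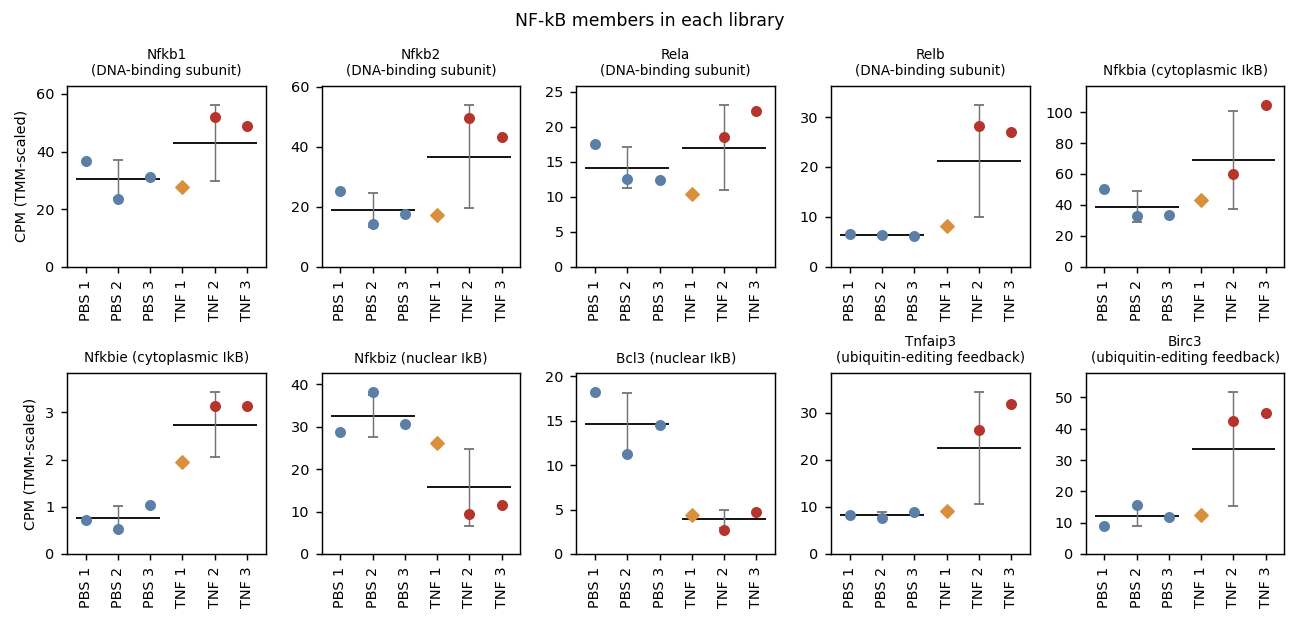
CPM of each member (vertical axes from 0, TMM-scaled) in the 3 PBS libraries (blue circles) and the 3 TNF libraries (orange diamond, TNF replicate 1; red circles, replicates 2 and 3); black lines are group means and grey bars 1 SD. TNF replicates 2 and 3 lie outside the PBS range for all 10 genes, and TNF replicate 1 joins them clearly for Bcl3 and part of the way for Nfkbie.

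Among the DNA-binding subunits, the genes of the non-canonical arm had the larger estimates. Relb (ENSMUSG00000002983, chromosome 7, 19339017 to 19363425), the Rel protein of that arm, had 6.49, 6.34 and 6.17 CPM after PBS in replicates 1 to 3 and 8.24, 28.2 and 27.1 CPM after TNF in replicates 1 to 3. The groups did not overlap, and the PBS mice were nearly alike. Its mean was 6.34 ± 0.160 CPM after PBS and 21.2 ± 11.2 CPM after TNF (SD, n = 3). EdgeR estimated a log2 difference of 1.74 (SE 0.42, adjusted p 0.270), and without TNF replicate 1 it rose by a log2 of 2.14 (SE 0.22, edgeR adjusted p 1.32e-04). Nfkb2 (ENSMUSG00000025225, chromosome 19, 46292759 to 46303812), whose p100 product is both inhibitor and precursor of p52, had 25.2, 14.3 and 17.4 CPM after PBS and 17.2, 49.6 and 43.2 CPM after TNF. TNF replicate 1 lay within the PBS range and the other TNF libraries above it. EdgeR placed the log2 difference at 0.95 (SE 0.38, adjusted p 0.370), and 1.31 without TNF replicate 1 (SE 0.25, adjusted p 0.00502). An opposite-strand transcript, 4833438C02Rik, overlaps the start of Nfkb2 and held 704 counts in all libraries beside 2553 of Nfkb2. The use of strand in counting is not given, so reads of the pair may be shared.

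The canonical subunits had smaller estimates. Nfkb1 (ENSMUSG00000028163, chromosome 3, 135290264 to 135397742), the gene of p105 and p50, had 36.6, 23.6 and 31.0 CPM after PBS and 27.7, 52.1 and 48.9 CPM after TNF. Again TNF replicate 1 lay among the PBS libraries. Gm43430 overlaps Nfkb1 on the same strand and held 259 counts beside 3280 of Nfkb1, and reads of such a pair cannot be told apart by strand. In edgeR the estimate was, on the log2 scale, 0.50 (SE 0.28, adjusted p 0.499), and 0.75 without TNF replicate 1 (SE 0.22, adjusted p 0.0391). Rela (ENSMUSG00000024927, chromosome 19, 5687493 to 5698161), the main activating subunit, had 17.6, 12.5 and 12.4 CPM after PBS and 10.4, 18.5 and 22.2 CPM after TNF. TNF replicate 1 was the lowest of all libraries and the other TNF libraries were the highest, with PBS replicate 1 close beneath them. Rela did not pass in any of the 15 alternative analyses, with log2 fold changes of 0.04 to 0.57, against 0.27 (SE 0.31, adjusted p 0.764 by edgeR) in all 6 libraries.

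The cytoplasmic inhibitors had higher values in TNF. Nfkbia (ENSMUSG00000021025, chromosome 12, 55535332 to 55539432), the gene of IkB-alpha and the best known negative feedback target of NF-kB, had 50.2, 33.1 and 33.2 CPM after PBS and 43.1, 60.2 and 105 CPM after TNF. TNF replicate 1 lay within the PBS range, and TNF replicate 3 was far above every other library. By edgeR the log2 difference was 0.83 (SE 0.33, adjusted p 0.368), 1.10 without TNF replicate 1 (SE 0.27, adjusted p 0.0190) and 0.42 without TNF replicate 3 (adjusted p 0.920). Nfkbie (ENSMUSG00000023947, chromosome 17, 45866585 to 45874661), the gene of IkB-epsilon, was the least abundant member, with 0.721, 0.534 and 1.03 CPM after PBS and 1.95, 3.13 and 3.14 CPM after TNF, from only 10, 8 and 14 counts in PBS and 23, 64 and 39 counts in TNF. The groups did not overlap, and TNF replicate 1 also lay above PBS. In edgeR a log2 difference of 1.84 (SE 0.58, adjusted p 0.297) became 2.05 without TNF replicate 1 and did not pass there either (SE 0.64, adjusted p 0.0548). Since Nfkbie met the filter only through the TNF libraries, nothing is read from these p-values.

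The nuclear inhibitors had lower values. Bcl3 (ENSMUSG00000053175, chromosome 7, 19541553 to 19557570), a coregulator of p50 and p52 dimers, had 18.2, 11.3 and 14.5 CPM after PBS and 4.42, 2.74 and 4.67 CPM after TNF, from 252, 169 and 198 counts in PBS and 52, 56 and 58 counts in TNF. All 3 TNF libraries were far below all PBS libraries, and TNF replicate 1 lay between the other TNF libraries. On the log2 scale edgeR gave -1.90 (SE 0.33, adjusted p 0.270), and -1.98 without TNF replicate 1 (SE 0.34, adjusted p 0.00313). The lncRNA Gm16175 overlaps Bcl3 on the opposite strand and had 0 counts. Nfkbiz (ENSMUSG00000035356, chromosome 16, 55631738 to 55659262), the gene of IkB-zeta, a nuclear cofactor for a subset of NF-kB targets, had 28.7, 38.0 and 30.6 CPM after PBS and 26.1, 9.34 and 11.6 CPM after TNF. The groups did not overlap, although TNF replicate 1 lay just beneath PBS. The edgeR estimate in log2 was -1.06 (SE 0.37, adjusted p 0.324), and -1.62 without TNF replicate 1 (SE 0.23, adjusted p 0.00114). With Relb, Nfkbie and Tnfaip3, 3 members thus lay above PBS in every TNF library (9.07% of all tested genes did), and with Bcl3 and Nfkbiz, 2 lay below (7.82%). Nfkbie is counted there although it met the filter only through TNF.

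The ubiquitin-editing feedback genes had estimates nearly as large as that of Relb. Tnfaip3 (ENSMUSG00000019850, chromosome 10, 18874201 to 18891405), which encodes A20, an enzyme that edits ubiquitin chains at the TNF receptor complex, had 8.22, 7.61 and 8.89 CPM after PBS and 9.09, 26.3 and 31.9 CPM after TNF. The groups did not overlap, but TNF replicate 1 exceeded the highest PBS library by less than the spread of PBS. EdgeR put the change in log2 at 1.45 (SE 0.41, adjusted p 0.278), and 1.84 without TNF replicate 1 (SE 0.22, adjusted p 3.49e-04). Birc3 (ENSMUSG00000032000, chromosome 9, 7845790 to 7873229), which encodes the ubiquitin ligase cIAP2, had 9.02, 15.6 and 11.9 CPM after PBS and 12.5, 42.6 and 45.2 CPM after TNF. TNF replicate 1 lay within the PBS range. The log2 difference by edgeR was 1.46 (SE 0.44, adjusted p 0.293), and 1.87 without TNF replicate 1 (SE 0.24, adjusted p 5.51e-04).

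**Figure D2:**
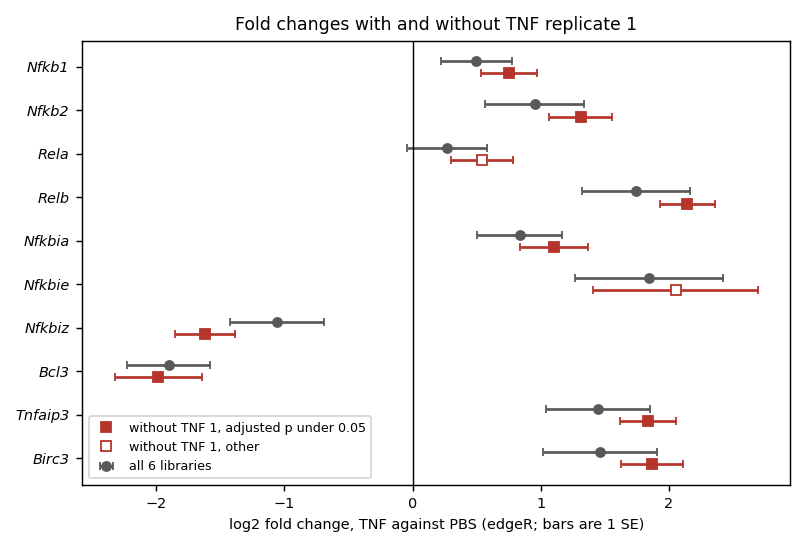
Log2 fold change of TNF against PBS (horizontal axis, edgeR, bars are 1 SE) for each member, in all 6 libraries (grey circles) and without TNF replicate 1 (red squares, filled where the adjusted p is under 0.05). Bcl3 and Nfkbiz lie left of 0 and the other 8 right of it; Rela and Nfkbie have open squares.

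The members were next compared for the place of TNF replicate 1. TNF replicates 2 and 3 were both above the PBS range for the 8 members with higher means, as were 24.1% of all tested genes, and both below it for Bcl3 and Nfkbiz, as were 22.0%. Nfkbie is counted among the 8 although it met the low-count filter only through TNF. TNF replicate 1 was inside the PBS range for 4 of 10 members (Nfkb1, Nfkb2, Nfkbia and Birc3). On a log2 (CPM + 0.5) scale, with the PBS mean set to 0 and the mean of TNF replicates 2 and 3 set to 1, it lay at 0.86 for Bcl3 and 0.63 for Nfkbie. For the other members it lay between -0.80 (Rela) and 0.19 (Nfkbiz), where the value of Rela rests on a small difference of 0.52 between the ends of the scale. Over the 1944 tested genes with a log2 difference of at least 1 between these ends, the median was 0.03 (quartiles -0.23 and 0.28), and 13.0% lay above 0.5. These places are a description without a test.

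**Figure D3:**
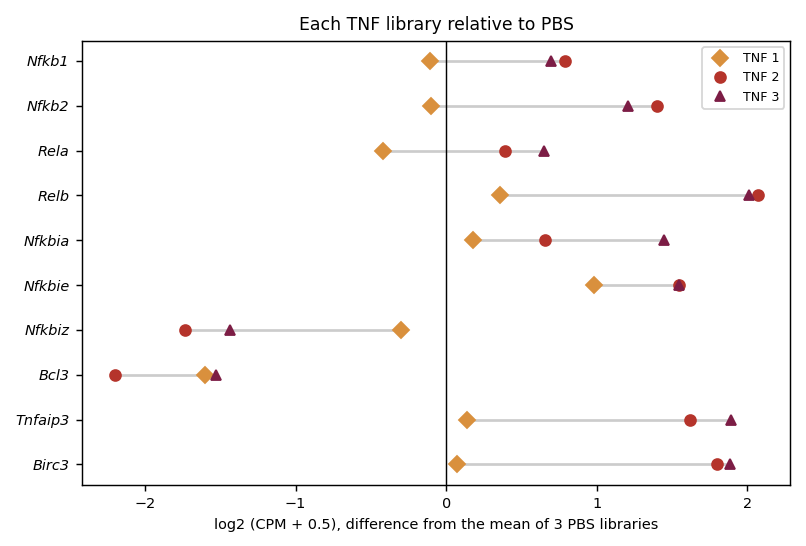
Difference of each TNF library from the mean of the 3 PBS libraries (horizontal axis, log2 of CPM + 0.5) for each member, with TNF replicate 1 as orange diamonds, replicate 2 as red circles and replicate 3 as purple triangles. The diamond lies at -1.60 for Bcl3 and 0.98 for Nfkbie and within 0.42 of 0 for the other members.

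Ratios between members within a library do not depend on the scaling between libraries, and 4 were computed per kb of canonical transcript. The ratio of Bcl3 to Nfkbia was 0.283, 0.267 and 0.343 in PBS and 0.0802, 0.0356 and 0.0350 in TNF, and the groups did not overlap (log2 difference -2.67, two-sided exact permutation p 0.1, 0.133 adjusted over the 4 ratios). The ratio of Relb to Rela was 0.295, 0.405 and 0.398 in PBS and 0.636, 1.22 and 0.975 in TNF, again without overlap (log2 difference 1.33, exact permutation p 0.1, adjusted 0.133). The ratio of Nfkbia, the inhibitor, to Rela, its main partner, was 4.91, 4.54 and 4.61 in PBS and 7.16, 5.59 and 8.10 in TNF (log2 difference 0.55, exact permutation p 0.1, adjusted 0.133). In these 3 ratios TNF replicate 1 lay on the side of the other TNF libraries. The ratio of Nfkb2 to Nfkb1 was 0.481, 0.421 and 0.391 in PBS and 0.432, 0.663 and 0.616 in TNF, with TNF replicate 1 among PBS (log2 difference 0.38, exact permutation p 0.2, adjusted 0.2). A p of 0.1 is the smallest that 3 against 3 libraries allow, so no ratio could pass 0.05.

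**Figure D4:**
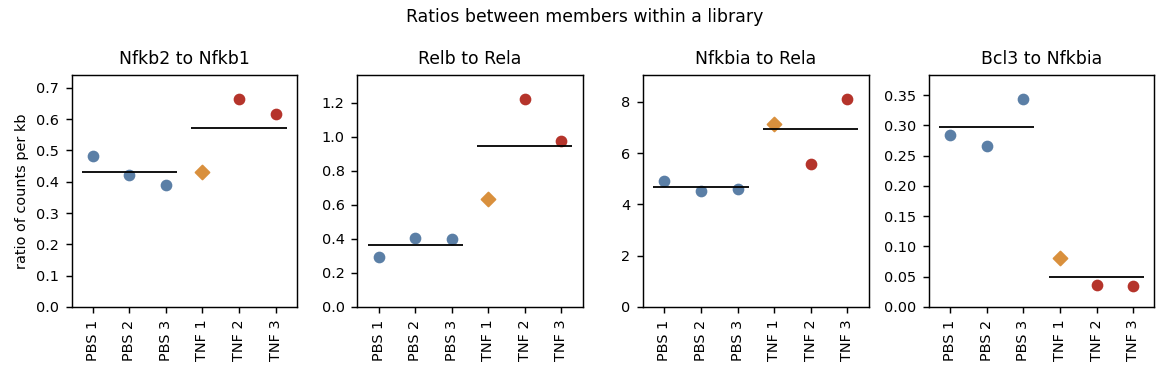
Ratio of counts per kb of canonical transcript (vertical axes from 0) for 4 pairs of members in each library, with PBS in blue, TNF replicate 1 as an orange diamond, TNF replicates 2 and 3 in red and group means as black lines. Bcl3 to Nfkbia is at most 0.0802 in the TNF libraries and at least 0.267 in the PBS libraries.

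The order of the members by level, in CPM per kb of canonical transcript, also differed between libraries. In PBS, Nfkbia was the most abundant at 24.6 ± 6.24 CPM per kb (SD, n = 3), and its lowest library (21.0) was above the highest of Nfkbiz (9.41). Nfkbiz (8.03 ± 1.22), Bcl3 (7.27 ± 1.71), Nfkb1 (6.46 ± 1.38) and Rela (5.22 ± 1.09) followed, each overlapping the next. Then came Nfkb2 (2.81 ± 0.836), Birc3 (2.10 ± 0.566) and Relb (1.87 ± 0.0472), which also overlapped in turn. Tnfaip3 (1.19 ± 0.0928) and Nfkbie (0.310 ± 0.102) were lowest and lay apart from their neighbours. In TNF replicates 2 and 3 Nfkbia was still first, at 38.2 and 66.2 CPM per kb, but Nfkbiz stood at 2.31 and 2.87 and Bcl3 at 1.36 and 2.32, below all members other than Nfkbie (1.27 and 1.28). Relb, at 8.32 and 7.97, was above Rela, at 6.82 and 8.18, in TNF replicate 2 but not in replicate 3. With the total exon length in place of the canonical transcript, 6 of the 10 ranks in PBS were the same, so the order depends on the length used.

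The other genes of the pathway, 60 in 5 groups, were examined in the same fits. Of the 45 tested in all 6 libraries, 0 passed 5% in edgeR. An unadjusted edgeR p under 0.05 was reached by 8, where 12.3% of all tested genes reached it. Among these 8, Ccl20, Icam1 and Tnfaip2 did not meet the low-count filter in the PBS libraries alone, so nothing is read from this count. Without TNF replicate 1, 52 were tested, but 8 of them (Cd40, Tnip3, Cxcl1, Cxcl2, Icam1, Tnf, Lcn2 and Plaur) met the low-count filter only through TNF replicates 2 and 3. Such genes had to differ, so they are described by their values and left out of the counts. Of the other 44, 10 rose and 0 fell, where 8.68% and 5.70% of the 12919 genes that met the filter in PBS alone did. Ccl20, at 0.866, 0.667 and 0.0735 CPM after PBS, is among these 10. Without TNF replicate 1 the filter asked for fewer libraries, so Ccl20 met it there in PBS alone, and its call is not read. In the Rel and IkB family, 1 of 3 rose: Rel, the gene of c-Rel, had 4.40, 3.54 and 3.38 CPM after PBS and 3.23, 7.58 and 17.7 CPM after TNF (log2 fold change 1.75 without TNF replicate 1, edgeR adjusted p 0.0108). Nfkbib, the third classical cytoplasmic IkB gene, did not pass (0.35, adjusted p 0.517).

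Of 11 kinase genes 2 rose, both IkB kinase genes. Ikbke had 9.59, 14.02 and 11.4 CPM after PBS and 8.07, 28.2 and 25.3 CPM after TNF (log2 fold change 1.22 without TNF replicate 1, edgeR adjusted p 0.00541), and Ikbkb had a log2 fold change of 0.89 (adjusted p 0.0479). Tbk1, a related kinase gene, had 0.63 (adjusted p 0.05003) and Ikbkg, the scaffold, 0.68 (adjusted p 0.0544), both short of the 5% level. The gene of the other catalytic subunit, Chuk, did not pass and had a negative estimate (-0.39, adjusted p 0.218). Of 10 receptor and adaptor genes 2 rose. Traf3, an adaptor that restrains the non-canonical arm, had 16.9, 10.6 and 14.4 CPM after PBS and 13.4, 26.8 and 23.5 CPM after TNF (log2 fold change 0.87, adjusted p 0.0339). The other was Tnfrsf1b, the gene of the second TNF receptor (1.58, adjusted p 0.0176). Cd40, a receptor that feeds the non-canonical arm, had 0 counts in the 3 PBS libraries, which allows up to 0.220 CPM, and 0.255, 3.77 and 8.38 CPM after TNF in replicates 1 to 3.

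Of 9 genes for linear ubiquitin chains, deubiquitinases and their partners, 1 rose. Tnip1, a partner of A20, had 11.9, 12.7 and 13.5 CPM after PBS and 9.94, 22.3 and 24.0 CPM after TNF (log2 fold change 0.88, edgeR adjusted p 0.0175 without TNF replicate 1). Tnip3, of the same family, had 0 counts in PBS and in TNF replicate 1, and 5.19 and 12.5 CPM in TNF replicates 2 and 3. The linear ubiquitin ligase genes Rnf31, Rbck1 and Sharpin did not pass, with log2 fold changes of 0.12 to 0.19. Of 11 target genes outside the module 4 rose, whereas Cxcl5, Ccl2, Vcam1, Il6 and Pdlim4 had 0 counts in every library. Ccl20 is among the 4, and its call is not read. The chemokine gene Cxcl16 had 1.30, 1.20 and 0.808 CPM after PBS and 3.82, 56.4 and 74.0 CPM after TNF (log2 fold change 5.89, edgeR adjusted p 7.72e-07 without TNF replicate 1). Nos2, the inducible nitric oxide synthase, had 6.42, 3.80 and 1.76 CPM after PBS and 3.23, 38.2 and 76.1 CPM after TNF (log2 fold change 3.85, adjusted p 2.32e-04). TNF replicate 1 lay within the PBS range for Nos2 and above it for Cxcl16, far below the other TNF libraries in both. Lcn2, the gene of the iron-scavenging protein lipocalin 2, had 0.0721, 0 and 0.220 CPM after PBS and 0.340, 72.4 and 89.0 CPM after TNF. Icam1, an adhesion molecule, had 0, 0.334 and 1.25 CPM after PBS and 1.61, 24.2 and 32.2 CPM after TNF.

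**Figure D5:**
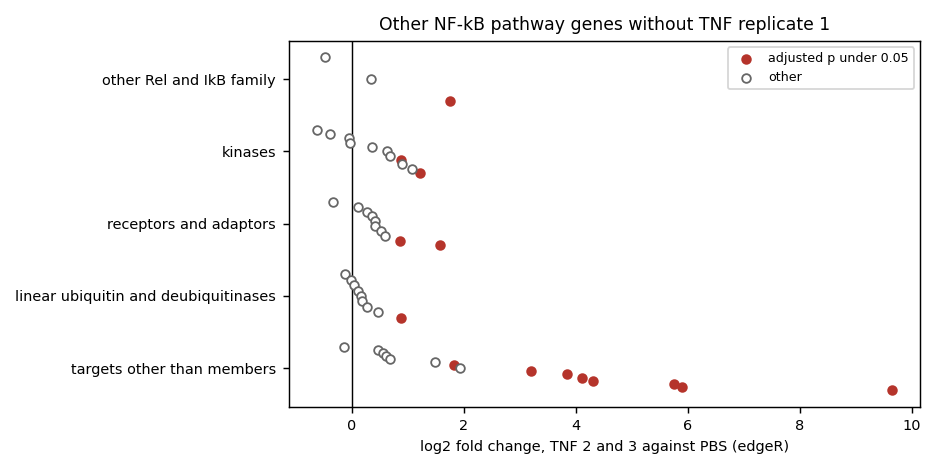
Log2 fold change of TNF replicates 2 and 3 against PBS (horizontal axis, edgeR without TNF replicate 1) for 48 other pathway genes in 5 groups, filled where the adjusted p is under 0.05; 4 tested genes with 0 counts in every PBS library are not drawn. The filled points all lie right of 0, and Icam1, Tnf, Lcn2 and Plaur among them met the low-count filter only through TNF replicates 2 and 3.

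Markers of some other cells also differed in TNF replicates 2 and 3. The 6 enterocyte markers summed to 94.6 to 116 CPM after PBS, to 101 CPM in TNF replicate 1 and to 19.7 and 24.2 CPM in TNF replicates 2 and 3. Fabp2 made up most of the sum in TNF replicate 1 (91.4 CPM). Of the 4 enterocyte markers tested in all 6 libraries, Apoa1 and Sis lay below PBS in every TNF library, replicate 1 included. Among all tested genes 7.82% did. Apoa4 and Alpi also lay below PBS throughout, but did not meet the low-count filter over all 6 libraries. Alpi held only 47 counts in total. The lowest PBS value of Apoa4 was 0.505 CPM, close to the 0.425 CPM of TNF replicate 1. Nothing is read from the place of TNF replicate 1 for Apoa4 and Alpi. Fabp1 did not fall (log2 fold change 0.35 without TNF replicate 1, edgeR adjusted p 0.807). The 4 stem cell markers, mostly Olfm4, summed to 2123 to 2590 CPM after PBS, to 4095 CPM in TNF replicate 1 and to 361 and 373 CPM in the other TNF libraries. Without TNF replicate 1, Olfm4, Ascl2 and Smoc2 fell (log2 fold changes -3.09, -2.17 and -1.11, edgeR adjusted p at most 0.0137). In that fit 5.40% of 13660 genes fell. Lgr5 did not pass (-0.25, edgeR adjusted p 0.571), with 54.0 to 76.8 CPM after PBS and 69.0, 68.3 and 42.2 CPM after TNF. No marker of either list was at 0 in all libraries. The 6 goblet cell markers summed to 3020 to 3384 CPM after PBS and to 3155, 3038 and 2362 CPM after TNF. Muc2 made up much of this sum. Without TNF replicate 1 the other markers Tff3, Fcgbp, Zg16 and Clca1 fell, 4 of 6, where 5.40% of all genes did. Their log2 fold changes were -1.20, -1.92, -2.84 and -1.70 (edgeR adjusted p at most 0.0395). Clca1 had 302 CPM in TNF replicate 1, against 32.0 to 66.3 CPM after PBS. Its estimate in all 6 libraries was therefore positive (1.31, edgeR adjusted p 0.641), while those of Tff3, Fcgbp and Zg16 stayed negative. The 5 tuft cell markers summed to 399 to 1392 CPM and to 477, 925 and 503 CPM. The 3 enteroendocrine markers summed to 20.6 to 62.3 CPM after PBS and to 55.4, 19.5 and 81.0 CPM after TNF. The part of these shifts in the values of the module was not tested. The 8 endothelial and stromal markers, of which Cdh5, Kdr, Col1a2 and Dcn were at 0 throughout, summed to at most 0.667 CPM in any library, and the immune cell sums of TNF lay within the range of PBS.

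Genes with the most similar pattern were sought by the root-mean-square difference of log2 CPM over the 6 libraries, each gene centred on its own mean, among 9758 other genes of sufficient level. For Nfkb1 the closest were Golm1 (0.03), Traf3 (0.06) and Rab15 (0.06). Relb was closest to Aprt (0.13), Elovl7 (0.14) and F11r (0.14), and Tnfaip3 to S100a16 (0.12), Elovl7 (0.14) and Arpc3 (0.14). Birc3 was closest to Slc25a20 (0.15), Crot (0.16) and Zwint (0.17). Nfkbiz was closest to Amigo3 (0.10), Slc10a5 (0.15) and Plcb1 (0.15). Bcl3 had the most distant neighbours of all members, Defa-ps16 (0.22), Rab39b (0.32) and Stk26 (0.42), and counts of the pseudogene Defa-ps16 are uncertain because alpha-defensin copies share reads. With 6 libraries such likeness is a description only.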

How the data were processed

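PCs from small intestine were sorted from 3 PBS and 3 TNF mice, and the labels gave each library its group and replicate number. Per the labels, the authors used a column RNA kit and single-end Element AVITI sequencing; the submitters' processing notes name FastQC, Trimmomatic 0.39, STAR 2.7.10a, DESeq2 and build mm39. The counting tool, annotation release, strand setting and treatment of multi-mapped reads were not stated there. The deposited values were raw counts per Ensembl gene, 1 column per library.

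Genes were named with GENCODE vM39 (GRCm39). Counts were filtered (filterByExpr, minimum count 10, minimum total 15), scaled by trimmed mean of M-values (TMM) and tested with edgeR 4.0.16 in R 4.3.3 (quasi-likelihood test, two-sided, group only, Benjamini-Hochberg over all tested genes). The SE is the log2 fold change over the square root of F. CPM used TMM-scaled sizes. For pathway genes, the filter was also applied to the PBS libraries alone, a step added after the data were seen. The number of libraries it asked for was the size of the smaller group, so it was lower without TNF replicate 1. A count of 0 allows up to 3 counts, for counting error only. Fits were tested on simulated data. The series text gives each library a mouse of its own, so p-values were read as measuring the spread between mice. TNF replicate 3 held both Y-linked and Xist signals, so this reading is uncertain for that library.

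The members and lists were chosen with earlier results of these data known. All 10 members are named; likeness names the 3 closest genes whose log2 CPM averaged 2 or more, and pathway genes are named by the smallest p without TNF replicate 1, up to 4 a group. Those given beside them (Nfkbib, Chuk, Rnf31, Rbck1, Sharpin, genes at 0 and genes named for the low-count filter) were added after their values were seen. Alternatives were other scalings and filters, DESeq2 1.42.0, limma-voom (limma 3.58.1) with and without sample weights, a replicate block and leaving out each library.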

Additional observations from a re-analysis of the deposited data

How the results depend on the processing

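All alternatives were planned. No member changed direction in any of the 15 alternatives, and 24 of 149 single-member values passed 5% where the analysis of all 6 libraries did not. The count of 0 genes and 0 members past 5% stayed at 0 and 0 under relative log expression, upper-quartile and library-size scaling, a mean CPM of at least 5 and limma-voom. It became 690 genes and 6 members with no low-count filter, 223 genes and 2 members with DESeq2, and 1501 genes and 8 members with limma-voom and sample weights; the cause was not tested. Leaving out 1 library gave 0 to 1980 genes and 0 to 8 members, with every call coming from the analysis without TNF replicate 1. The median log2 fold change of the members was 0.62 (without TNF replicate 3) to 1.23 (sample weights). The median over all genes was -0.11 under library-size scaling. Nfkbie passed with sample weights (limma-voom adjusted p 0.0447), which is not read because it met the filter only through TNF. Its adjusted p ranged from 0.0447 to 0.897 over the alternatives, and that of Bcl3 from 2.39e-05 to 0.854. With the replicate number as a block, 0 genes and 0 members passed. Same-numbered libraries did not deviate together (correlations -0.01, -0.07 and 0.03), and 1 of 6 libraries correlated best with its own number, so the numbers were not taken to pair the libraries, although both libraries numbered 3 carried Y-linked counts. The 4 ratios kept their direction with a pseudocount of 1 and without each library. Nfkbie had 8 to 14 counts per PBS library; the part of depth in its missing call was not tested.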
